A study of Mus musculus with 7 samples.

Results

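The alpha-macroglobulins were followed here in the livers of mice that lack C3ar1, the receptor for the complement fragment C3a. All 6 listed members of the family were measured, out of 16462 named genes, and they held 7 of the 23574 probes of the array. A2ml1, A2m, Pzp, Mug1 and Cd109 had 1 probe each and Mug2 had 2. The family was chosen by the knockout and wild-type values of A2ml1 in these same livers, and the remaining members by their kinship with it. The A2ml1 contrast is therefore given as a description, with no test.

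The livers came from 3 C3ar1-/- mice, numbered 2 to 4, and from 4 wild-type littermates, numbered 1 to 4, all on a chow diet. Each 2-colour array set total RNA of 1 liver against the same pool, made from livers of 6 wild-type animals, so every value is a log ratio to that pool and not a level. The part of C3ar1 that is deleted and the strain, sex and age of the mice are not given in the sources used here. Positive values were read as liver above pool. The titles name the pool before the liver, which does not settle the direction. Folds and percents of the pool assume base 10. Neither direction nor base is stated, and all signs would switch if the ratio ran the other way.

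Alpha-macroglobulins are large secreted or membrane-bound proteins that act as protease traps. A protease cuts the exposed bait region, the protein closes around it, and an internal thioester can bind the captured enzyme. Complexes of the soluble members are taken up in liver through Lrp1, an endocytic receptor of hepatocytes and macrophages. The complement proteins C3 and C4 share this ancestry and the thioester. In mouse plasma the tetrameric inhibitor long called alpha-2-macroglobulin is encoded by the gene now named Pzp, whose older symbols in the annotation include A2m, while Mug1 and Mug2 encode the single-chain murinoglobulins of rodents. The gene now named A2m is a separate locus. A2ml1, with the older names Ovos and Ovos2, encodes a member known in human skin as a protease inhibitor of the epidermis. Cd109 encodes a membrane-anchored member that binds TGF-beta.

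The medians of the arrays lay between -0.0008 and 0.0139 and their SDs over probes between 0.0466 and 0.0975, the widest being that of knockout liver 2. The C3ar1 probe did not separate the genotypes, at 0.0042, 0.0337 and 0.0514 in knockout livers 2 to 4 and -0.0296, -0.0318, 0.0225 and 0.0264 in wild-type livers 1 to 4. This probe can lie outside the deleted part, so it checks neither the labels nor the direction. Log ratios to a liver pool cannot show which markers are absent, so the labelled tissue could not be checked against its markers. In whole liver, fewer cells of a type and less RNA per cell cannot be told apart.

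A2ml1 read far below the pool in every knockout liver. Its log ratio was -0.708, -0.731 and -0.809 in knockout livers 2, 3 and 4, or 19.6%, 18.6% and 15.5% of the pool. If the ratio ran from pool to liver, these would be 510%, 538% and 645% of the pool. In wild-type livers 1 to 4 it was 0.0160, 0.220, 0.0207 and 0.0534, or 104%, 166%, 105% and 113% of the pool. The groups did not overlap, and the gap between the highest knockout and the lowest wild-type value was 0.724. On each knockout array A2ml1 was among the lowest probes of all, in place 4, 6 and 8 counted from the bottom (or from the top, if the direction is turned), while in the wild types its place lay between 15603 and 23479. Only 2 other probes on the array differed more between the genotype means.

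The genotype means of A2ml1 were -0.749 ± 0.0532 in the knockouts (SD, n = 3) and 0.0774 ± 0.0962 in the wild types (SD, n = 4). The difference, knockout minus wild type, was -0.827 ± 0.0528 (SE of the limma fit), or 6.71-fold if the base is 10. Read as base 2, the same difference would be 1.77-fold. The knockout values lay close together, and most of the spread among the wild types came from liver 2. Leaving this liver out gave a difference of -0.779, and over the 7 arrays left out in turn it ranged from -0.848 to -0.779. Whether the knockout signal, lower in the direction read here, reached the background of the array is not known, since signal over background was not analysed.

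**Figure D1:**
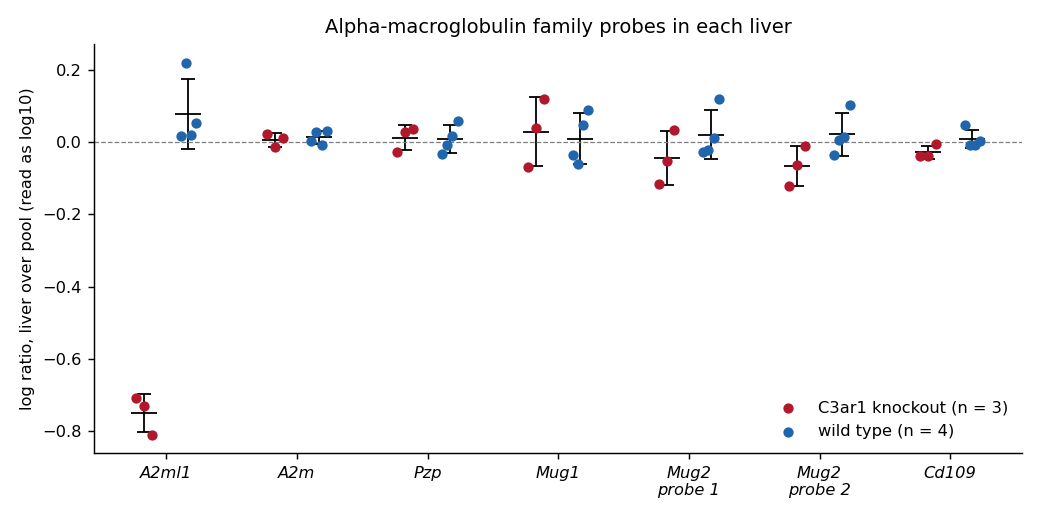
Log ratio of each liver to the wild-type pool (vertical axis, read as log10) for the 7 family probes, with C3ar1 knockout livers (n = 3) left of wild-type livers (n = 4). Points are livers, horizontal marks are means and bars are SDs. The 3 knockout livers lie between -0.809 and -0.708 for A2ml1, below all wild types, while the groups overlap in the other 6 probes.

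The other 6 probes stayed within 0.0870 of 0 in their difference between genotypes, 4 below it and 2 above. Their groups all overlapped, so 1 of 7 family probes, A2ml1, had groups that did not overlap, where 5.26% of all probes did. The limma test over all probes called the same 1 of 7, and 0.00424% of all probes. Since A2ml1 chose the family, nothing is read from either count. For the other 6 the adjusted p (limma, Benjamini-Hochberg over all probes) lay between 0.884 and 0.978. The A2ml1 difference was 9.51 times the largest of the others.

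Pzp and A2ml1 are neighbours among the measured genes of mouse chromosome 6, with 0 measured and 2 annotated genes between them. Both are read from the same strand. The sequences around their start sites are shown because the genes lie close together. As reference sequences, not read from these mice, they show nothing about the difference between genotypes. They are RefSeq promoters of build GRCm38.p6, from 250 bases before to 50 after the annotated start, on the minus strand, and RefSeq tables gave such a sequence for 4 of the 6 members. Capitals mark matches to the core promoter motif TATAAA or to GTTAAT, part of the site of the liver factor HNF1, searched on both strands.
A2ml1, chr6:128581557-128581856: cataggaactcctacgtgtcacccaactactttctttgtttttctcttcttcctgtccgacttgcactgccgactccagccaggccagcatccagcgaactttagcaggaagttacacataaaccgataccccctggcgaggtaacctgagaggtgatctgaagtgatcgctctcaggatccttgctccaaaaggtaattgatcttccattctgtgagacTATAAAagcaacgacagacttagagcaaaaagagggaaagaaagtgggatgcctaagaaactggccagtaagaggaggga
Pzp, chr6:128526671-128526970: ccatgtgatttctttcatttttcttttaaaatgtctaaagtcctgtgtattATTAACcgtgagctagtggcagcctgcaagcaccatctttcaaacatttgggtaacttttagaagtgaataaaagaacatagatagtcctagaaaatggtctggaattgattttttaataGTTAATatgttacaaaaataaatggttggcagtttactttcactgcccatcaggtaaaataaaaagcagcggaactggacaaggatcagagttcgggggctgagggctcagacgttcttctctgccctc

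In these windows A2ml1 held 1 match to TATAAA, which starts at position -30 from the annotated start, and 0 to GTTAAT. Pzp held 0 and 2 of these. Of 27025 RefSeq promoters of the same length, 14.2% held TATAAA and 7.20% held GTTAAT on either strand. Neither window, nor those of Mug1 and Mug2, held the C/EBP motif TTGCNNAA or the STAT motif TTCNNNGAA, which 10.8% and 8.47% of the promoters held. The best local alignment of the A2ml1 and Pzp windows spanned only 19 positions. A match is a run of letters and not a shown binding site.

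Pzp, the main plasma alpha-macroglobulin of the mouse, showed no difference between genotypes beyond the spread of mice. Its log ratio was -0.0273, 0.0273 and 0.0364 in knockout livers 2 to 4, against -0.0318, -0.0093, 0.0169 and 0.0577 in wild-type livers 1 to 4. The knockout range lay inside the wild-type range. The difference was 0.00376 ± 0.0273 (SE; 95% interval -0.0597 to 0.0672; limma, adjusted p = 0.978). The sign of so small a value turned with several choices of processing, given after the results.

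A2m gave the narrowest values of the family, with a range of 0.0446 over the 7 livers, and 7.0% of all probes had a smaller one. It read 0.0220, -0.0150 and 0.0105 in knockout livers 2 to 4 and 0.0026, 0.0266, -0.0080 and 0.0296 in wild-type livers 1 to 4. The groups overlapped almost fully, and the difference of -0.00687 (95% interval -0.0507 to 0.0370) did not pass (limma, adjusted p = 0.945). Whether A2m was detected above background in liver is not known here.

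Cd109, the TGF-beta-binding member and the single one of the family on another chromosome (9), read slightly below the pool in the knockouts. Its values were -0.0392, -0.0393 and -0.0068 in knockout livers 2 to 4 and 0.0464, -0.0070, -0.0083 and 0.0042 in wild-type livers 1 to 4. Knockout liver 4 lay among the wild types, and wild-type liver 1 stood above the rest. The difference was -0.0373 ± 0.0207 (SE; 95% interval -0.0854 to 0.0109; limma, adjusted p = 0.884).

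Mug1 and Mug2, the murinoglobulin genes, lie next to A2m on chromosome 6 with 3 annotated pseudogenes of the group among or beside them, Gm7298, Mug4-ps and Mug-ps1. The start sites of the 2 coding genes are shown because they are near-copies, so that their transcripts may share signal on these probes. Both lie on the plus strand of GRCm38.p6, and capitals mark GTTAAT on either strand.
Mug1, chr6:121838291-121838590: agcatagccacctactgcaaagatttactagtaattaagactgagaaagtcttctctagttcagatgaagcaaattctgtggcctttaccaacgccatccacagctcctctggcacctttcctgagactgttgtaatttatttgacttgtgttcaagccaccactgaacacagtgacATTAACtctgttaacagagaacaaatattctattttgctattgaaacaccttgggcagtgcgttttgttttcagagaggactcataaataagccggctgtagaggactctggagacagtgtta
Mug2, chr6:122006548-122006847: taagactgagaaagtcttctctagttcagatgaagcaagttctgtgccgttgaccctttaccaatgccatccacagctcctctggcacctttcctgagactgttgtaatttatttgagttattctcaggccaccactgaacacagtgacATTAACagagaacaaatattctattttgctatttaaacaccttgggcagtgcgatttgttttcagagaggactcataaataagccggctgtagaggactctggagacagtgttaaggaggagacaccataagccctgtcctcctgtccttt

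The windows of Mug1 and Mug2 aligned over 272 positions with 246 identical, or 90.4%. Each held 1 match to GTTAAT, and 0 to TATAAA. The probe sequences were not used here, so how much each Mug probe reads the other gene or the pseudogenes was not tested, and the Mug values are uncertain in that respect.

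Mug1 varied more between mice than between genotypes. It read -0.0704, 0.0382 and 0.118 in knockout livers 2 to 4. In wild-type livers 1 to 4 it read -0.0358, -0.0620, 0.0468 and 0.0885. The knockouts held both the lowest and the highest value, and the difference was 0.0192 ± 0.0522 (SE; limma, adjusted p = 0.945).

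The 2 probes of Mug2 gave near-equal readings, both lower on average in the knockouts. The first read -0.115, -0.0530 and 0.0335 in knockout livers 2 to 4 and -0.0265, -0.0211, 0.0106 and 0.118 in wild-type livers 1 to 4. The second read -0.122, -0.0638 and -0.0115 in knockout livers 2 to 4 and -0.0364, 0.0049, 0.0126 and 0.103 in wild-type livers 1 to 4. In both probes knockout livers 2 and 3 lay below all wild types and knockout liver 4 lay among them. The differences were -0.0651 (95% interval -0.172 to 0.0419) for the first and -0.0870 (-0.177 to 0.00278) for the second, with a limma adjusted p of 0.884 for each.

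Pzp, Mug1 and Mug2 shared most of the order of the livers within each genotype. In all 4 of their probes knockout liver 2 was the lowest and knockout liver 4 the highest of the knockouts. Among the wild types liver 4 was the highest and liver 3 the next in each of them, while the lowest was liver 2 for Mug1 and liver 1 for the other 3 probes. Mug1, for example, deviated from its genotype mean by -0.0990 in knockout liver 2, by 0.0894 in knockout liver 4 and by 0.0791 in wild-type liver 4. A2ml1 did not follow this order: it was lowest in knockout liver 4, by -0.0600 from its mean, and highest in wild-type liver 2, by 0.142. A2m and Cd109 followed it only in part. A2m was highest of the knockouts in liver 2 (0.0220), and Cd109 highest of the wild types in liver 1 (0.0464). Hc, the gene of complement C5 and an alpha-macroglobulin relative without the thioester, was lowest in knockout liver 2 (-0.0303) and highest in knockout liver 4 (0.183), with wild-type liver 4 (0.0926) the highest of its group. C4b, the other complement relative measured, was highest in knockout liver 4 (0.122) too. It was lowest of the knockouts in liver 3 (0.0654) and highest of the wild types in liver 3 (0.0361). All these probes share the same 7 arrays, and array-wide differences or RNA quality as a part of this order were not tested.

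**Figure D2:**
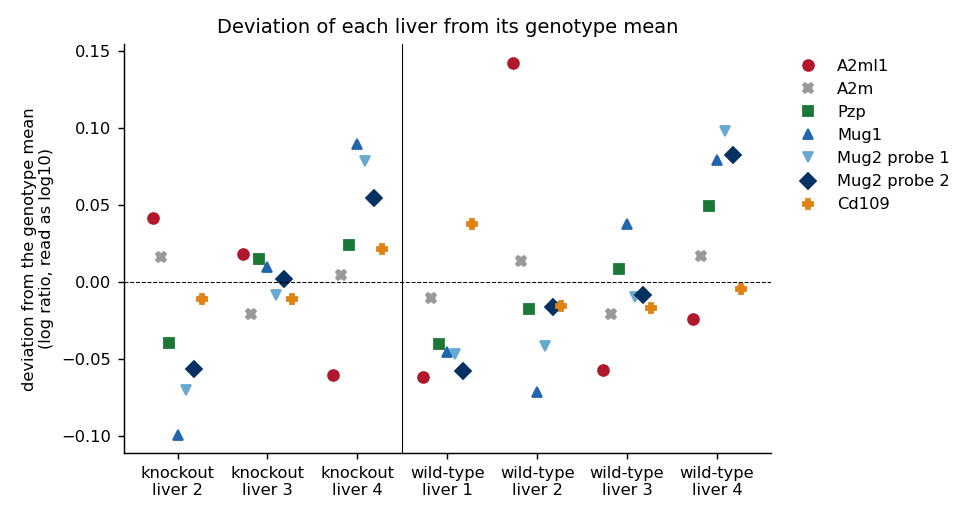
Deviation of each liver's log ratio (vertical axis, read as log10) from the mean of its genotype, knockout livers at the left and wild-type livers at the right of the line, 1 marker per probe. Pzp, Mug1 and both Mug2 probes are low in knockout liver 2 and high in knockout liver 4 and wild-type liver 4, and A2ml1 stands highest in wild-type liver 2 (0.142).

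The mean of the wild-type livers was also compared with the pool. For A2ml1, whose wild-type values took part in the choice of the family, the mean of 0.0774 is a description. For the other 6 probes it lay between 0.00838 for Pzp and 0.0211 for the second Mug2 probe, and none passed (limma, adjusted p 0.992 for each). Of all probes 0, or 0% of 23574, passed this test, with 546 at an unadjusted p under 0.05, and an ordinary test, without pooling of variances, also called 0 with 673 at that level. If mice of the arrays gave RNA to the pool, this contrast understates the difference between the wild types and the pool.

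The values of A2ml1 were set beside those of the 6 nearest measured genes on each side of it in the GRCm38.p6 annotation. Of these 12 genes, with 1 probe each, 9 differed between genotypes by less than 0.05 in log ratio. Between A2ml1 and Clec2h, the gene of a lectin-like membrane protein, lie 1 measured and 5 annotated genes. Clec2h read -0.769, -0.732 and -0.795 in knockout livers 2 to 4 and -0.219, -0.0805, 0.0641 and 0.101 in wild-type livers 1 to 4. Klrb1c, a natural killer cell receptor gene and the next measured one, differed by -0.157 ± 0.0322 (SE). On the far side of Pzp, the DNA damage checkpoint gene Rhno1 differed by 0.198 ± 0.0363 (SE).

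Klrb1a, another natural killer receptor gene and the measured one next to A2ml1 on the side away from Pzp, differed by 0.0392. The knockouts thus lay wholly below the wild types in 2 of the 12 probes and wholly above in 2, where 2.54% and 2.71% of all probes did so. None of the 12 passed the limma test, where 0.00424% of all probes did. The limma adjusted p was 0.101 for Clec2h and 0.884 for Klrb1c, Rhno1 and Klrb1a. C3ar1 lies on the same chromosome, 82 measured genes from A2ml1 and 10 from Mug2. The sources used here do not give the strain origin of the chromosome around C3ar1 in these knockouts, and its part in the values of A2ml1 and its neighbours was not tested.

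**Figure D3:**
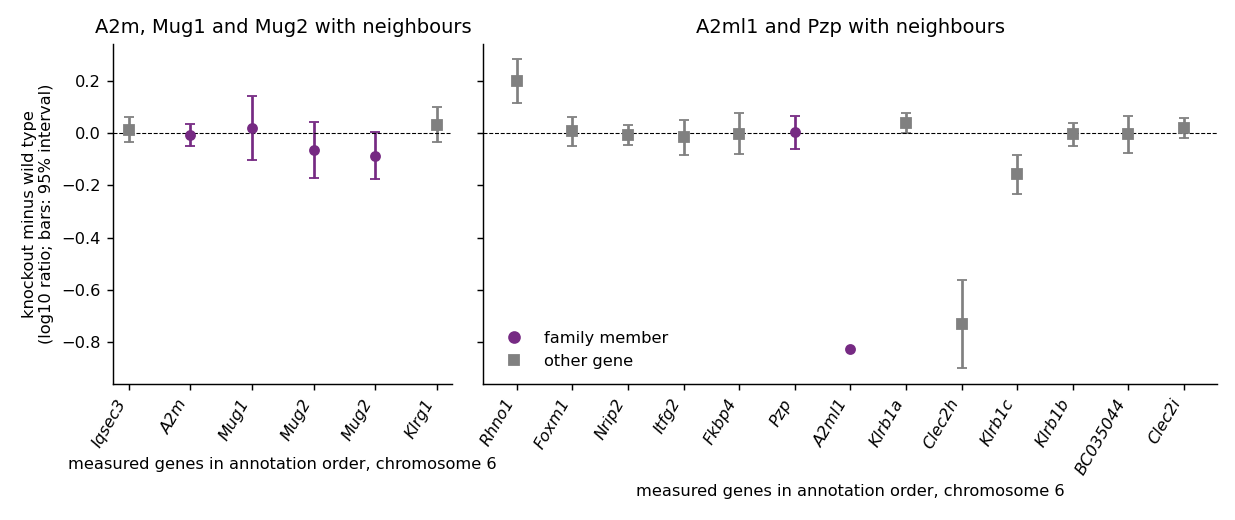
Difference between genotypes (vertical axis, knockout minus wild type, read as log10, with 95% intervals of the limma fit except for A2ml1) for family members (circles) and neighbouring measured genes (squares) in annotation order on chromosome 6, not to scale. A2ml1 (-0.827) and Clec2h (-0.732) stand far below 0, while Pzp, A2m, Mug1 and both Mug2 probes have intervals that include 0.

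The genes whose profile over the 7 livers was most like that of A2ml1 were found by the root mean square distance of log ratios. Clec2h was the nearest at 0.148, then Slc15a5, of the peptide transporter family, at 0.154. The next were Sucnr1, the succinate receptor gene, at 0.295, Bhlhb9 at 0.305, Osbpl3, of the oxysterol-binding protein family, at 0.311 and Mgst1, a microsomal glutathione transferase gene, at 0.317. One probe without a single symbol was nearer than the last of these. Clec2h, Slc15a5, Osbpl3 and Mgst1, or 4 of the 6, lie on chromosome 6 with A2ml1, which holds 5.49% of the probes with 1 symbol. Since these genes were picked by the profile that chose the family, nothing is read from that count.

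Slc15a5 read -0.518, -0.531 and -0.586 in knockout livers 2 to 4 and 0.0731, 0.160, 0.0871 and -0.116 in wild-type livers 1 to 4. It lacked the overlap of groups seen for Bhlhb9 and Osbpl3, in which at least 1 knockout lay among the wild types. The mean differences between genotypes were -0.732 for Clec2h and -0.596 for Slc15a5. The median distance over all probes was 0.505, and the other 6 family probes lay between 0.459 and 0.527, with 4 of them nearer than that median.

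Genes related to the alpha-macroglobulins or to their work were read as 6 lists, with 122 probes of 113 genes. None of the 122 passed the limma test in either direction (lowest adjusted p = 0.884), where 1 of all 23574 probes did. At an unadjusted limma p under 0.05 were 7 of the 122, and 1054 of the 23574. The ordinary test called 0 of all probes, so its 0 among the 122 adds nothing. Over all probes 57.0% read higher in the knockouts and the median difference was 0.00555, which is the background for the lists.

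Of the complement relatives, C4b and Hc were measured, both higher in the knockouts on average. C4b, which carries the thioester, read 0.0784, 0.0654 and 0.122 in knockout livers 2 to 4 and -0.0031, 0.0143, 0.0361 and 0.0300 in wild-type livers 1 to 4. The groups did not overlap, and the difference of 0.0692 ± 0.0207 (SE) did not pass (limma, adjusted p = 0.884).

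Of the receptor and clearance genes 5 of 9 probes were higher, with a median of 0.00112. Lrp1, the uptake receptor, read 0.138, -0.0013 and 0.0886 in knockout livers 2 to 4 and -0.0004, 0.0029, 0.0532 and 0.0626 in wild-type livers 1 to 4, so its groups overlapped. Its chaperone gene Lrpap1 differed by -0.0103.

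In the TGF-beta system, to which Cd109 belongs, 14 of 20 probes were higher and the median was 0.0160. Groups did not overlap for Ltbp3, a latency-binding protein gene (0.0523 ± 0.0180, SE), for the co-receptor gene Eng (0.0732 ± 0.0269) and for the signal transducer gene Smad2 (-0.0949 ± 0.0328). That is 3 of 20 probes, where groups did not overlap in 5.26% of all probes, and none passed. The list mean was between 0.00381 and 0.0160 in the knockouts and between -0.00886 and 0.00344 in the wild types, without overlap.

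Among interleukin 6 and acute phase signalling genes 15 of 18 probes were higher, with a median of 0.0281. Il1r1, the interleukin 1 receptor gene, read 0.0808, 0.329 and 0.190 in knockout livers 2 to 4 and -0.0210, -0.0245, -0.207 and -0.0797 in wild-type livers 1 to 4, without overlap and without passing (limma, adjusted p = 0.884). The 2 probes of Socs3, the feedback inhibitor of this pathway, disagreed in sign, at 0.105 and -0.0420. The list mean was between 0.00649 and 0.0295 in the knockouts and between -0.0517 and -0.000824 in the wild types. In the other 4 of the 6 companion lists the means of the genotypes overlapped. How often the means of a list separate was not tested.

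Proteases of plasma and tissue were higher in 32 of 43 probes with a median of 0.0215. Which of them the family traps was not examined. The membrane protease gene Mmp14 differed by 0.108 ± 0.0323 (SE) and Mmp7, a matrix metalloprotease gene, by -0.269 ± 0.243. In the wild types alone Mmp7 lay between -0.572 and 0.594. Other inhibitors outside the serpins were higher in 20 of 31 probes with a median of 0.0199. Fetub, the gene of fetuin-B, differed by 0.0689 ± 0.0246 (SE), Itih3, an inter-alpha-trypsin inhibitor heavy chain gene, by 0.101 ± 0.0623 and Tfpi2, a tissue factor pathway inhibitor gene, by -0.189 ± 0.0941. None of these passed.

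**Figure D4:**
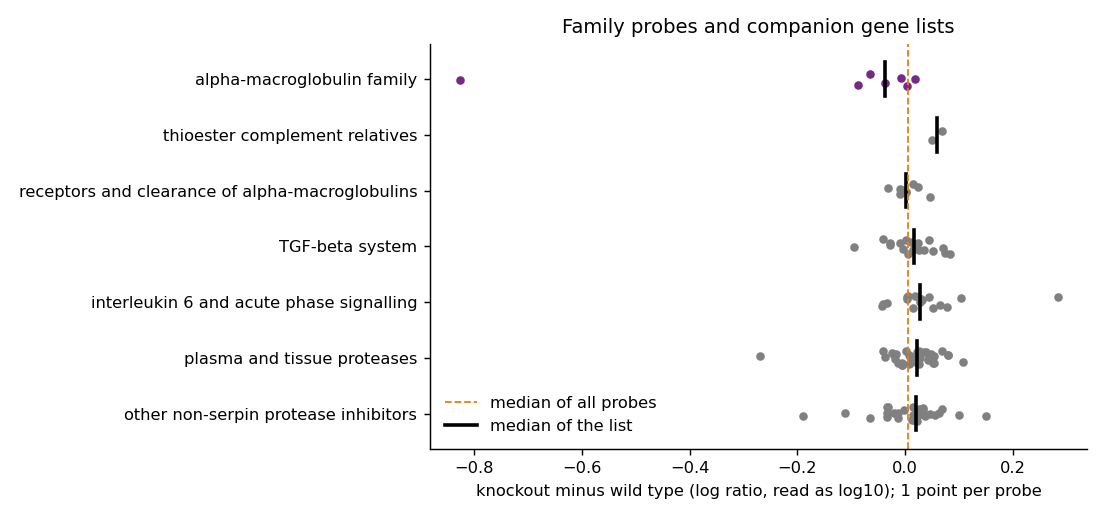
Difference between genotypes (horizontal axis, knockout minus wild type, read as log10) of each probe of the family and of the 6 companion lists, with the median of each list as a black bar and the median of all probes (0.00555) as a dashed line. A2ml1 alone lies at -0.827, and every companion probe lies between -0.269 and 0.283.

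Markers of 11 cell types were read beside these values, with 64 probes. Of these 0 passed the limma test, where 0.00424% of all probes did, so nothing is read from that 0. Keratinocyte markers, a cell type known for A2ml1 in human skin, had list means between 0.00108 and 0.0159 in the knockouts and between -0.0303 and 0.0254 in the wild types, so the genotypes overlapped. Means of 2 of the 11 marker lists did not overlap, both higher in the knockouts, where 57.0% of all probes also read higher. How often list means separate in this way was not tested, so nothing is read from this count. Endothelial markers were higher in 8 of 8 probes, with means between 0.0119 and 0.0442 in the knockouts and between -0.0323 and 0.00743 in the wild types. Platelet markers were higher in 4 of 4 probes, with means between 0.0126 and 0.0224 in the knockouts and between -0.0475 and 0.00045 in the wild types. Most other lists leaned the same way. Higher were 4 of 4 pancreatic acinar, 7 of 8 keratinocyte, 6 of 7 hepatocyte, 6 of 7 Kupffer cell and 5 of 6 stellate cell probes. So were 4 of 5 lymphocyte and 4 of 6 neutrophil probes, but only 2 of 4 bile duct and 2 of 5 erythroid probes. The lean is thus not particular to endothelial and platelet markers. Endothelial cells and platelets are known to carry Cd109. The part of these cells in the values of its probe was not tested.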

How the data were processed

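Each value is the authors' deposited log ratio of 1 liver to the wild-type pool, on 2-colour arrays with aminoallyl labelling and dye swaps, per the labels' protocols and the series' design text. The deposited log10 ratios, so read because their spread would be small in base 2, were centred near 0 before deposit. Scanner software, background correction and normalization are not given in the sources used here. All 7 columns were used, with 0 unused and 0 values missing, and no pair of arrays shared more than 0.119% of identical values. The number of arrays limits the precision.

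Gene names came from the annotation of the platform, and 17724 were brought up to date by Entrez number and 21 by accession with the GRCm38.p6 gene table. In all, 17824 probes had 1 symbol, 50 several and 5700 none listed. That table also gave the gene order, but no coordinates of probes.

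Knockout minus wild type was fitted for each probe by lmFit and eBayes of limma 3.58.1 (R 4.3.3). Two-sided p-values were adjusted over all 23574 probes by Benjamini-Hochberg, with a threshold of 0.05. The mice are described as separate animals. On simulated data of 23574 probes, 10%, 74%, 98% and 100% of changes of 0.1, 0.2, 0.4 and 0.8 were recovered in this comparison, with 7 false calls. The simulated noise was normal and independent between probes, and many probes were changed at once, which eases the adjusted threshold. In the real fit Clec2h (-0.732) and Slc15a5 (-0.596) were not called. The recovered shares therefore do not give the power of the real test. Promoters were aligned with Biopython 1.88. The members, lists and tests were chosen with earlier results of these data known. Named were all family probes, up to 3 genes of smallest p per companion list and direction, the 6 profiles nearest to A2ml1 and its 6 neighbours on each side. Same-numbered livers were not paired, since their deviations from the genotype means correlated at -0.137, -0.205 and -0.154 over probes.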

Additional observations from a re-analysis of the deposited data

Results flagged for a closer look

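Among 57 named probes, 2 had a wild-type liver that stood apart from the other 3 of its group by Dixon's criterion, and chance flags about 1 in 20 groups. Reck, the gene of a membrane-anchored inhibitor of matrix metalloproteases, read 0.0559 in wild-type liver 2, with the nearest of the others at -0.0033. BC035044, a neighbour of A2ml1, read -0.0088 in wild-type liver 3, with the nearest of the others at 0.0384. The high A2ml1 value of wild-type liver 2 just missed the criterion, with a gap of 0.816 of the group's range.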

How the results depend on the processing

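The A2ml1 difference kept its sign in all 15 alternatives, with a range from -0.848 to -0.701. It was -0.701 after quantile normalization, the one setting that moved it by more than the spread between mice. With livers left out in turn it lay between -0.848 and -0.779, and with a replicate block on the shared numbers it was -0.847. The number of all probes called, 1 in the fit described, was 0 after quantile normalization, after scale normalization, with ordinary variances and with the replicate block, and 4 when the less variable 50% of probes were left out. It lay between 0 and 3 when livers were left out in turn, at 0 when the liver was knockout 2, 3 or 4 or wild type 3, at 2 when it was wild type 1 and at 3 when it was wild type 4. The cause was not tested. Livers with the same number were not paired by any label.

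No other family probe passed in any of its 15 or 16 alternatives. The sign of Pzp turned after median centring (-0.000908) and with the replicate block (-0.00963), and its values with livers left out lay between -0.00963 and 0.0235. Those of Mug1 lay between -0.0255 without knockout liver 4 and 0.0687, and those of A2m between -0.0150 and 0.00355. Mug2 and Cd109 kept their sign throughout, but their size rested on single livers. Leaving out knockout liver 2 brought the first Mug2 probe to -0.0301, leaving out wild-type liver 4 to -0.0324 and leaving out knockout liver 4 to -0.104. The second lay between -0.114 and -0.0587. Cd109 came to -0.0247 once wild-type liver 1 was dropped, and lay between -0.0481 and that value in all 7 such fits. None of the companion probes, and none of the family probes against the pool, was called in any alternative. The knockout contrast called only between 0 and 4 of all probes over the 15 alternatives in which these were counted. Against the pool, the fit described called 0 of all 23574 probes. Nothing is therefore read from the lack of calls among family or companion probes. Signal over background, which limits low values, was not analysed here.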

Other observations

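The murinoglobulin probes differed from each other within a liver in a way that neither gene showed alone. The mean of both Mug2 probes minus Mug1 was -0.0482, -0.0966 and -0.107 in knockout livers 2 to 4, and 0.00435, 0.0539, -0.0352 and 0.0223 in wild-type livers 1 to 4. The groups did not overlap, with means of -0.0839 ± 0.0314 in the knockouts (SD, n = 3) and 0.0113 ± 0.0372 in the wild types (SD, n = 4). This measure was chosen after the values were seen and was not tested. The 2 genes are near-copies that lie 10 measured genes or more from C3ar1, and how far the probes tell them apart was not tested.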
